A study of Homo sapiens with 6 samples.

Results

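Transcripts of the DNA replication machinery were described in cells labelled HT29, an established human colorectal cancer line, in 3 libraries after transfection of an siRNA against RNF6 and 3 libraries after a nonspecific control siRNA. RNF6 encodes a RING-type ubiquitin ligase, and the series asks what its depletion changes. The members are 53 genes chosen by name for their place in replication, out of 56638 listed gene symbols. All 53 were listed and all 53 passed the filter on low counts, among 14685 genes tested. The members had between 79 and 3397 reads in a library. The cells were 1 line, the treatment was transient, and the sources used here give neither the number of different siRNAs nor the time to harvest. The labels do not say that libraries of a group came from separate cultures, so a p-value here reflects the spread among these 6 libraries alone, and that spread may be technical.

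Replication starts at origins that are marked by the origin recognition complex (ORC). In G1 phase, CDC6 and CDT1 load the ring-shaped MCM2-7 helicase there, a step called licensing that geminin blocks later in the cycle. In S phase the kinase CDC7, with CDC45, MCM10 and the GINS complex, turns the loaded ring into a moving helicase. The clamp PCNA and its loader RFC, the polymerases, the single-strand binder RPA, the nuclease FEN1 and the ligase LIG1 then copy the strands, fed by the enzymes that make deoxynucleotides. Many of these genes are classic targets of E2F transcription factors, which drive entry into S phase.

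RNF6 itself had 16.5, 16.2 and 16.9 CPM (CPM scales gene-assigned reads to a common library total, with TMM factors) in the RNF6 siRNA libraries, against 54.3, 45.2 and 57.8 CPM in the control siRNA libraries. Gene reads per library were between 6808771 and 11071456 in the RNF6 siRNA group and between 7173957 and 9366532 in the control siRNA group. Of 12 markers of colonic epithelium, CDX1 had 0 reads in all 6 libraries, and VIL1, LGALS4 and CEACAM5 were each at 0.302 CPM or less in both groups. EPCAM was present at 226.7 CPM in RNF6 siRNA and 218 CPM in control siRNA libraries, and the most abundant marker, KRT8, at 1255.8 and 3064.3 CPM. CDH1, CDX2 and HNF4A were also present, at 113.6, 16.1 and 4.34 CPM in RNF6 siRNA and 105.9, 15.9 and 3.83 CPM in control siRNA libraries. The 4 markers at or near 0 put the HT29 label in question, and the identity of the line was not tested. The summed level of the 12 markers was 2450 to 2830 CPM in RNF6 siRNA and 4360 to 5660 CPM in control siRNA libraries, and most of it was keratin. KRT8, KRT18, KRT19 and KRT20 fell, and KRT20 was low, at 0.633 CPM in RNF6 siRNA and 1.99 CPM in control siRNA libraries. KRT20 had 3 to 21 reads in a library. EPCAM, CDH1, CDX2 and HNF4A had log2 fold changes of 0.06, 0.10, 0.01 and 0.20 and did not pass the test. The summed levels of 11 leukocyte markers, led by CSF1R, were 2.78 to 4.14 CPM in RNF6 siRNA and 4.54 to 6.51 CPM in control siRNA libraries, with CD3D and CD68 at 0. Those of 10 fibroblast markers, nearly all of it COL1A1, were 71.6 to 86.1 and 50.5 to 66.9 CPM. Those of 7 endothelial markers, led by EGFL7, were 46.2 to 54.1 and 38.1 to 59.4 CPM, with PECAM1 at 0. Their part in the results on replication genes was not tested.

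The replication genes moved in both directions after RNF6 siRNA, and by modest amounts. Of the 53 members, 11 rose, 6 fell and 36 did not pass the test (edgeR's quasi-likelihood test, two-sided, adjusted p below 0.05 over all genes tested). Together 32.1% of the members were called, against 32.7% of all genes tested, so the share of called members was that of the transcriptome at large. The 11 that rose are 20.8% of the members, against 16.6% of all genes called higher, and the 6 that fell are 11.3%, against 16.1% called lower. The largest change, in ORC5, was 1.77-fold, and 0 members reached a fold of 2, which 5.74% of all genes tested did with a call. The median log2 fold change of the members was 0.09, beside 0.01 for all genes tested, and the median of its absolute size was 0.24, beside 0.28. For 27 members, or 50.9%, the RNF6 siRNA and control siRNA libraries did not overlap, against 44.2% of all genes tested. In bulk RNA, a different share of cells in S phase and a different amount of RNA per cell cannot be told apart.

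**Figure D1:**
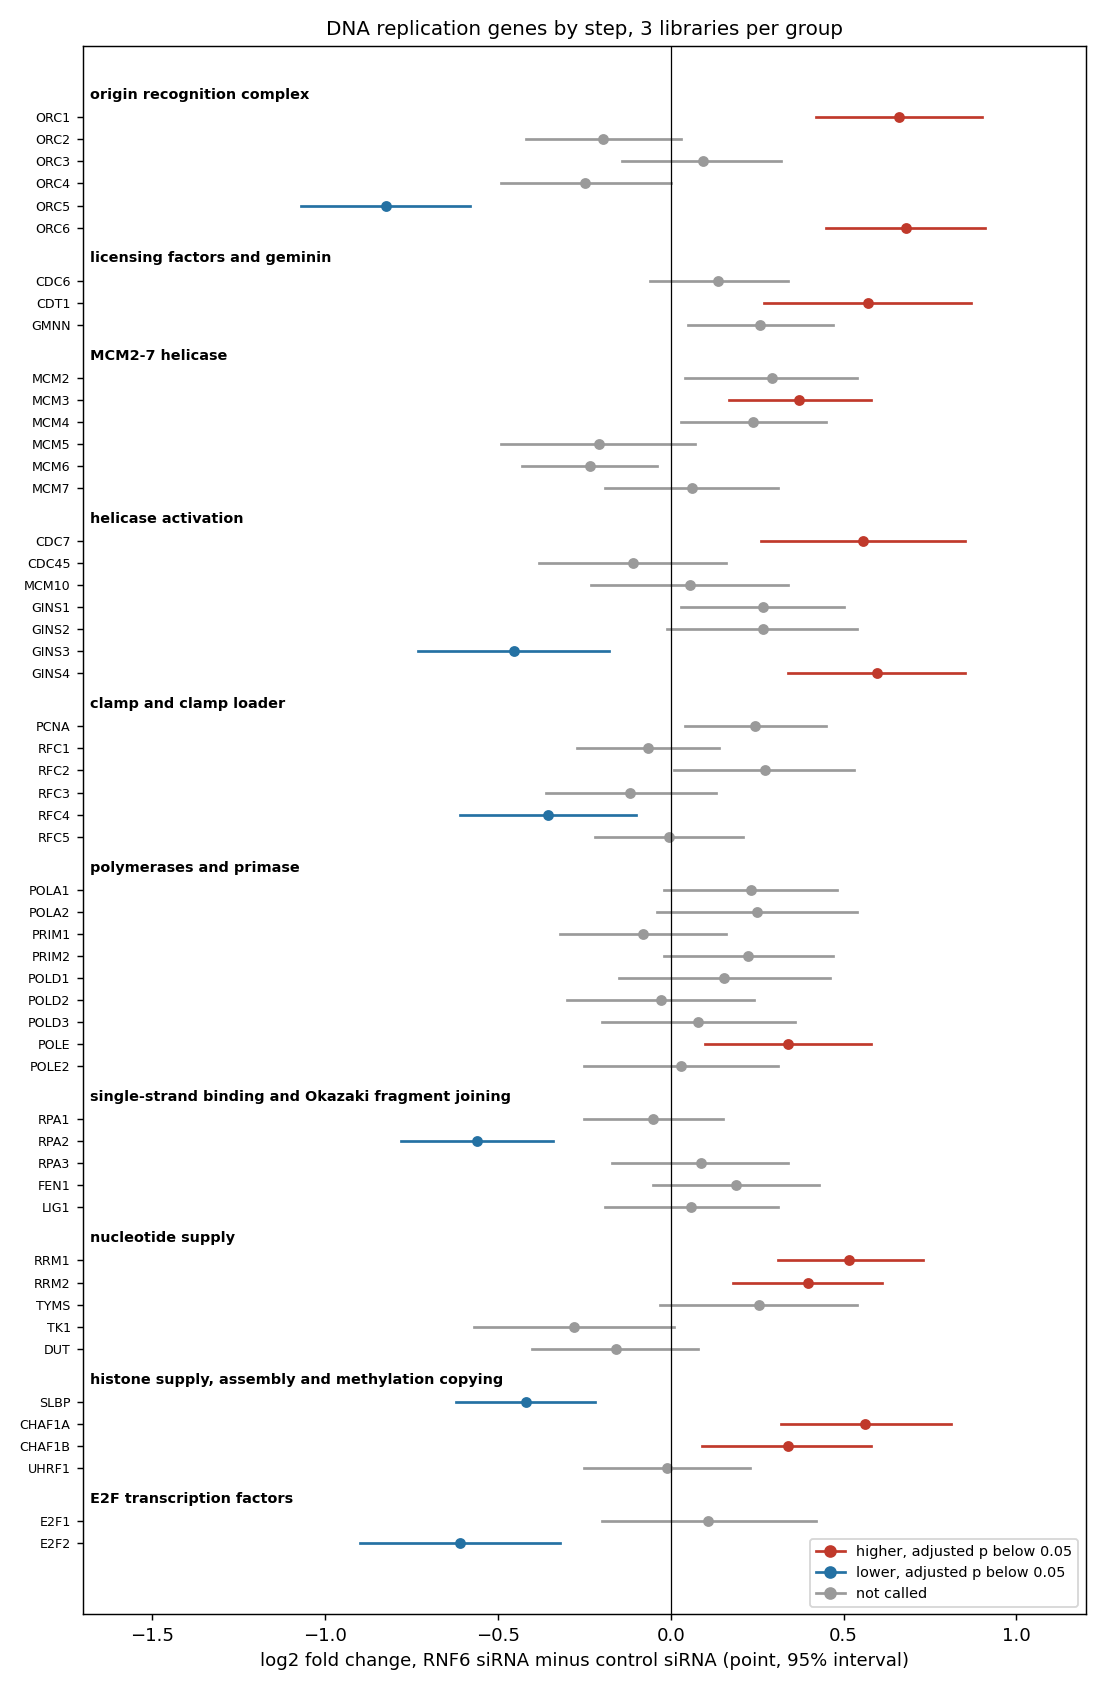
Log2 fold changes (RNF6 siRNA minus control siRNA) of the 53 replication genes, grouped by step, with 95% intervals, from 3 libraries per group. Red points rose, blue points fell and grey points did not pass the test. Called genes of opposite direction stand in the same complex for ORC (ORC1 and ORC6 against ORC5) and GINS (GINS4 against GINS3).

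A sequence feature that was not used to choose the members was more frequent among them than among tested genes. The feature is the E2F binding word, and many members are classic E2F targets, so the choice of genes favoured a higher share. E2F factors bind variants of an 8-base word, and 4 of these (TTTGGCGC, TTTCCCGC, TTTCGCGC and TTTGCCGC) were searched on both strands, counting overlapping matches, in RefSeq promoter windows (GRCh38.p14) from 250 bases before to 50 bases after an annotated start. Of 47 members with an entry in the table, 24 held at least 1 of the words in a window, or 51.1%. The same held for 6.58% of 9794 tested genes with an entry, for 3.99% of all 27305 symbols in the table, and for 3 of 32 genes of a mitosis list. The word was present in 4 of 10 members that rose, 2 of 5 that fell and 18 of 32 that did not pass. A match describes letters only and is not a measured binding site. The 6 called members with a match are printed from 80 bases before to 20 bases after the start, 5′ to 3′ along the gene, with the matched words in capitals, because they show the same words in front of genes that rose and genes that fell.
CDT1 (rose, chr16:88803709-88803808, plus strand): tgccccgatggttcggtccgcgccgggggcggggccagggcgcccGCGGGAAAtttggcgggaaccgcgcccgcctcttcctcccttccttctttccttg
MCM3 (rose, chr6:52284723-52284822, minus strand): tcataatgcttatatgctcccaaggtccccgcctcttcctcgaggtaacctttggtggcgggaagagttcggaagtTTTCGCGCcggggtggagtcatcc
CDC7 (rose, chr1:91501032-91501131, plus strand): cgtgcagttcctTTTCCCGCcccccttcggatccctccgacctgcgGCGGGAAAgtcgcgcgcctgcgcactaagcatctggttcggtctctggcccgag
POLE (rose, chr12:132687323-132687422, minus strand): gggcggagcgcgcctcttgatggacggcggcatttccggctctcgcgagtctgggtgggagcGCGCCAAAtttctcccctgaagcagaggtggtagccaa
GINS3 (fell, chr16:58392391-58392490, plus strand): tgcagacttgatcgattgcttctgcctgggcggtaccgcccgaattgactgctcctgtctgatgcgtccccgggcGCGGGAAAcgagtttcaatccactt
E2F2 (fell, chr1:23531214-23531313, minus strand): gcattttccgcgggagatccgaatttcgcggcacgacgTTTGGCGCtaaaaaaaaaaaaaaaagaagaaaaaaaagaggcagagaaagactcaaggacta
The matches begin at −35 in CDT1, −4 in MCM3, −68 and −34 in CDC7, −18 in POLE, −5 in GINS3 and −42 in E2F2, counted from the start with no position 0. MCM3 holds a further match at −174, outside the printed stretch.

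The origin recognition complex split. ORC1, the subunit whose level follows the cell cycle, had 42.0, 43.1 and 43.6 CPM in RNF6 siRNA libraries, against 26.1, 25.3 and 29.9 CPM in control siRNA libraries. It rose 1.58-fold (log2 fold change 0.66, SE 0.112, adjusted p = 0.000757). ORC6, the small subunit that stands somewhat apart from the ring of the others, had 47.9, 43.2 and 47.0 CPM in RNF6 siRNA and 29.9, 29 and 27.5 CPM in control siRNA libraries, and rose 1.6-fold (log2 fold change 0.68, SE 0.108, adjusted p = 0.00045). For both, every RNF6 siRNA library lay above every control siRNA library.

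ORC5, an ATPase-like subunit of the stable core, went the other way. It had 22.3, 20.8 and 19.6 CPM in RNF6 siRNA and 38.5, 37.7 and 35.0 CPM in control siRNA libraries, a fall of 1.77-fold (log2 fold change −0.82, SE 0.115, adjusted p = 0.000179). The log2 ratio of ORC6 to ORC5 was 1.10, 1.06 and 1.26 in RNF6 siRNA libraries, against −0.37, −0.38 and −0.35 in control siRNA libraries. This pair was chosen after its values were seen, so no test is given. The other core subunits did not pass. ORC2 had a log2 fold change of −0.20 (adjusted p = 0.164), ORC3 of 0.09 (0.538) and ORC4 of −0.25 (0.112). The summed level of all 6 subunits was 269.4 to 289.1 CPM in RNF6 siRNA and 269.2 to 287 CPM in control siRNA libraries, so the sums overlapped.

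Per kilobase of exon, ORC5 averaged 5.62 CPM in RNF6 siRNA libraries, the lowest of the 6 subunits, against 9.96 CPM in control siRNA libraries, where ORC6 was lowest at 6.68. The place of ORC5 depends on the length used. Per kilobase of the longest transcript, ORC4 was lowest in RNF6 siRNA libraries at 9.37 CPM, with ORC5 at 10.2, and ORC1 was lowest in control siRNA libraries at 8.58 CPM.

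**Figure D2:**
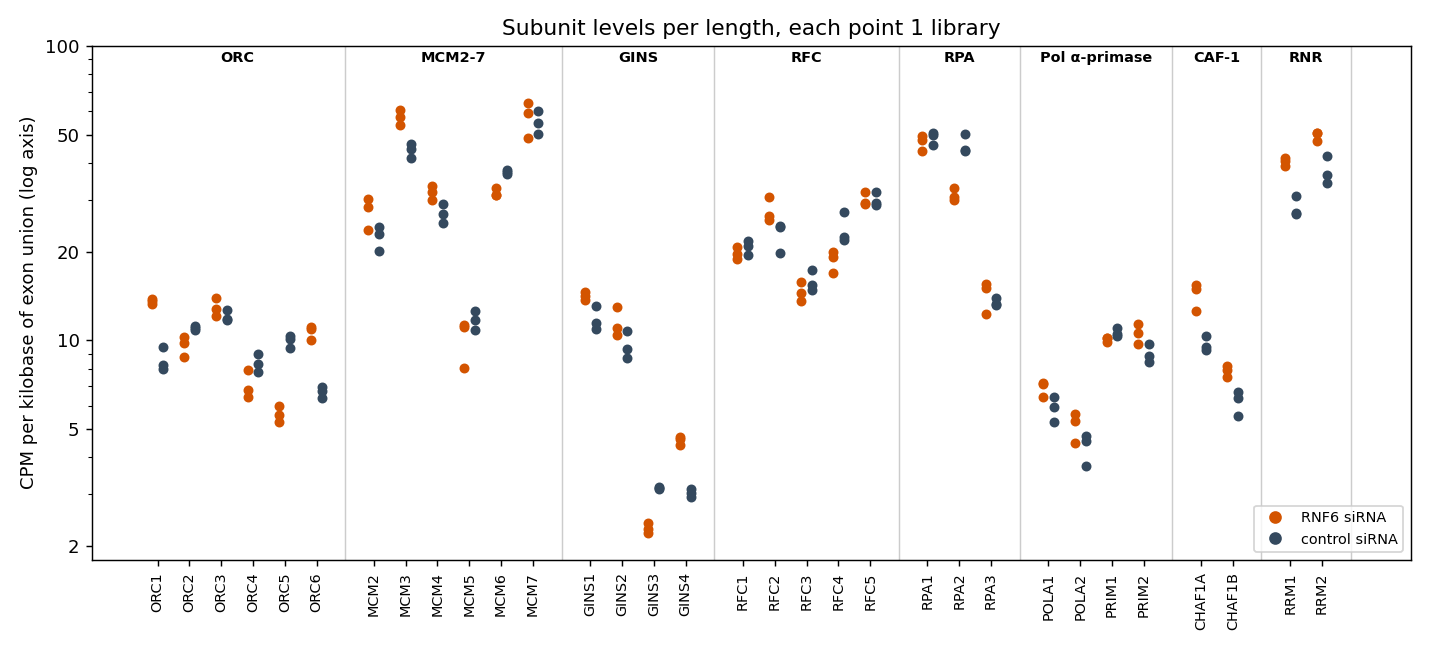
Level of each subunit of 8 replication complexes in CPM per kilobase of exon union (log axis), with orange points for the 3 RNF6 siRNA libraries and dark points for the 3 control siRNA libraries. RNR is ribonucleotide reductase and CAF-1 the chromatin assembly factor. ORC1, ORC6 and GINS4 sit higher and ORC5, GINS3 and RPA2 lower in RNF6 siRNA libraries, with no overlap of the groups. Other genes shown, such as MCM3, MCM6 and RRM1, also had no overlap, as had 44.2% of all genes tested.

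Among the licensing factors, CDT1 rose and its inhibitor did not pass the test. CDT1, which brings MCM2-7 to origins, had 88.9, 64.1 and 79.4 CPM in RNF6 siRNA libraries, against 45.5, 60.9 and 50.3 CPM in control siRNA libraries, and rose 1.48-fold (log2 fold change 0.57, SE 0.140, adjusted p = 0.00792). RNF6 siRNA replicate 2, at 64.1 CPM, was close to control siRNA replicate 2, at 60.9 CPM. GMNN, which encodes geminin, had 74.8, 71.4 and 71.9 CPM in RNF6 siRNA and 60.5, 62.1 and 59.6 CPM in control siRNA libraries, without overlap, at an adjusted p of 0.0565. With upper-quartile scaling GMNN passed (adjusted p = 0.045, spanning 0.0399 to 0.22 across its alternatives). CDC6, the ATPase that works with ORC, had 122.6 to 126.6 CPM in RNF6 siRNA and 109.3 to 115.5 CPM in control siRNA libraries, again without overlap but with a log2 fold change of 0.14 (95% interval −0.06 to 0.34, adjusted p = 0.281).

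Of the helicase subunits, MCM3 rose and the other 5 did not pass. MCM3 had 221.2, 196.7 and 209.1 CPM in RNF6 siRNA libraries and 152.4, 162.6 and 169.5 CPM in control siRNA libraries, a rise of 1.29-fold (log2 fold change 0.37, SE 0.0943, adjusted p = 0.00924). The others, which form a ring with MCM3 in equal numbers at the protein level, had log2 fold changes from −0.23 to 0.29. MCM6 was at 128.2 to 135.3 CPM in RNF6 siRNA and 151.7 to 155.6 CPM in control siRNA libraries, without overlap, at an adjusted p of 0.0637. MCM4 was at 209 to 233.9 CPM in RNF6 siRNA and 175.1 to 201.8 CPM in control siRNA libraries, also without overlap, at an adjusted p of 0.0722. MCM2 (log2 fold change 0.29, adjusted p = 0.0697), MCM5 (−0.21, 0.244) and MCM7 (0.06, 0.725) had overlapping groups, and annotated exons of other genes cover 23.6% of MCM2.

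The helicase calls turned on single libraries for 2 members that did not pass with all 6. MCM2 passed without RNF6 siRNA replicate 2 (adjusted p = 0.0358) or control siRNA replicate 2 (0.0367), spanning 0.00364 to 0.285 across its alternatives. MCM4 passed without control siRNA replicate 1 (adjusted p = 0.0295, spanning 0.0139 to 0.256 across its alternatives). Per kilobase of exon, MCM7 at 57.2 CPM and MCM3 at 57.3 CPM were the most abundant subunits in RNF6 siRNA libraries and MCM5 at 10.1 CPM the least. In control siRNA libraries these were MCM7 at 54.9, MCM3 at 44.2 and MCM5 at 11.7 CPM. MCM5 was also lowest per kilobase of the longest transcript, at 16.1 CPM in RNF6 siRNA and 18.7 CPM in control siRNA libraries.

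Helicase activation showed a rise of CDC7 and a split within GINS. CDC7, the kinase that phosphorylates loaded MCM2-7, had 50, 60.7 and 57.7 CPM in RNF6 siRNA libraries, against 45.4, 31.9 and 37.3 CPM in control siRNA libraries, and rose 1.47-fold (log2 fold change 0.56, SE 0.136, adjusted p = 0.00772). GINS4 had 25.3, 24.1 and 25.6 CPM in RNF6 siRNA and 17.1, 16.6 and 16.1 CPM in control siRNA libraries, and rose 1.51-fold (log2 fold change 0.60, SE 0.117, adjusted p = 0.00201). GINS3, a subunit of the same tetramer, had 11.3, 11.7 and 12.2 CPM in RNF6 siRNA and 16.1, 15.9 and 16.2 CPM in control siRNA libraries, and fell 1.37-fold (log2 fold change −0.45, SE 0.127, adjusted p = 0.0154).

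The spread within each group was small for this pair, and the groups stood clear of each other. The log2 ratio of GINS4 to GINS3, a pair chosen after its values were seen, was 1.16, 1.04 and 1.07 in RNF6 siRNA libraries and 0.08, 0.06 and −0.01 in control siRNA libraries. Per kilobase of exon, GINS4 averaged 4.57 CPM and GINS3 2.30 CPM in RNF6 siRNA libraries, against 3.03 and 3.15 CPM in control siRNA libraries. Annotated exons of other genes cover 23.6% of GINS4 and 10.9% of GINS3. The GINS3 call was lost on leaving out RNF6 siRNA replicate 1 (adjusted p = 0.0518) or control siRNA replicate 3 (0.0605), spanning 0.00541 to 0.0707 across its alternatives.

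The remaining activation factors did not pass. GINS1 and GINS2 each had a log2 fold change of 0.27 (adjusted p = 0.0752 and 0.126). Without control siRNA replicate 1 both passed, at adjusted p = 0.0254 (range 0.0195 to 0.322) and 0.0369 (range 0.0295 to 0.427). CDC45, part of the active helicase, had 20.8 to 23.2 CPM in RNF6 siRNA and 21.2 to 26.5 CPM in control siRNA libraries (adjusted p = 0.542). MCM10, which helps the helicase to open DNA, had 46 to 51.7 and 40.8 to 56.4 CPM (adjusted p = 0.782).

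At the clamp and its loader, 1 of 6 members fell and 0 rose, against 16.1% lower and 16.6% higher of all genes tested. RFC4, a small subunit of the loader, had 59.6, 57.3 and 50.8 CPM in RNF6 siRNA libraries, against 67.1, 81.5 and 65.7 CPM in control siRNA libraries, a fall of 1.28-fold (log2 fold change −0.36, SE 0.118, adjusted p = 0.0342). That call was lost on leaving out RNF6 siRNA replicate 2 (adjusted p = 0.0719) or 3 (0.16) or on leaving out control siRNA replicate 2 (0.13) or 3 (0.0549), spanning 0.00845 to 0.16 across its alternatives. PCNA, the sliding clamp, had 312.3, 278.4 and 280.9 CPM in RNF6 siRNA and 249.1, 259.8 and 227.1 CPM in control siRNA libraries, without overlap, at an adjusted p of 0.0674. RFC2 likewise did not overlap (56.8 to 67.9 CPM in RNF6 siRNA and 43.9 to 54.1 CPM in control siRNA libraries, adjusted p = 0.0995). RFC1, the large subunit, RFC3 and RFC5 had log2 fold changes between −0.12 and 0, with adjusted p of 0.628, 0.46 and 0.98.

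Of 9 polymerase and primase members, 1 rose and 0 fell, against 16.6% higher and 16.1% lower of all genes tested. POLE, the catalytic subunit of the leading-strand polymerase, had 166.0, 140.8 and 181.9 CPM in RNF6 siRNA libraries, against 129.5, 121.0 and 136.0 CPM in control siRNA libraries, and rose 1.27-fold (log2 fold change 0.34, SE 0.110, adjusted p = 0.0312). Its call was lost on leaving out RNF6 siRNA replicate 1 (adjusted p = 0.0646) or 3 (0.179) or on leaving out control siRNA replicate 2 (0.0702) or 3 (0.0791), spanning 0.00541 to 0.179 across its alternatives. Its accessory subunit POLE2 had a log2 fold change of 0.03 (95% interval −0.25 to 0.31). The primase and polymerase alpha subunits POLA1, POLA2, PRIM1 and PRIM2, which start each new strand, had log2 fold changes from −0.08 to 0.25 and adjusted p of 0.138 or more. For the lagging-strand polymerase, POLD1, POLD2 and POLD3 had log2 fold changes of 0.15, −0.03 and 0.08, and the widest of their 95% intervals, for POLD1, ran from −0.15 to 0.46.

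Among the proteins that bind single strands and join Okazaki fragments, RPA2 alone passed the test. RPA2, the middle subunit of the RPA trimer, had 66.7, 62.1 and 60.6 CPM in RNF6 siRNA libraries and 89.4, 101.3 and 88.6 CPM in control siRNA libraries, a fall of 1.47-fold (log2 fold change −0.56, SE 0.104, adjusted p = 0.00138). RPA1, the large DNA-binding subunit, had a log2 fold change of −0.05 (95% interval −0.25 to 0.15) and RPA3, the small one, of 0.09 (−0.17 to 0.34). The log2 ratio of RPA2 to RPA1 was −1.98, −1.95 and −2.16 in RNF6 siRNA libraries, against −1.51, −1.45 and −1.62 in control siRNA libraries, so the groups did not overlap. This pair, too, was chosen after its values were seen. FEN1 had 152.8 to 180.6 CPM in RNF6 siRNA and 136.2 to 166.9 CPM in control siRNA libraries (adjusted p = 0.207). LIG1 had 46.3 to 57.4 and 47.7 to 54.5 CPM (adjusted p = 0.733).

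Both subunits of ribonucleotide reductase, which turns ribonucleotides into deoxyribonucleotides, rose. RRM1, the large subunit, had 174.1, 163.2 and 169.8 CPM in RNF6 siRNA libraries, against 128.9, 112.6 and 113.3 CPM in control siRNA libraries, a rise of 1.43-fold (log2 fold change 0.52, SE 0.097, adjusted p = 0.0015). RRM2, the small subunit that limits the enzyme in S phase, had 268.5, 253.9 and 269.0 CPM in RNF6 siRNA and 224.5, 182.6 and 194.6 CPM in control siRNA libraries, a rise of 1.32-fold (log2 fold change 0.40, SE 0.0999, adjusted p = 0.00903). Leaving out control siRNA replicate 3 ended the RRM2 call (adjusted p = 0.0665, spanning 0.000487 to 0.0665 across its alternatives), and annotated exons of another gene cover 20.2% of RRM2.

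The enzymes of thymidine nucleotides did not pass. TYMS, thymidylate synthase, had a log2 fold change of 0.25 (adjusted p = 0.152), and exons of other genes, the antisense partner ENOSF1 among them, cover 46.6% of it. TK1, thymidine kinase, had 299.0, 222.3 and 259.5 CPM in RNF6 siRNA and 258.9, 365.6 and 323.7 CPM in control siRNA libraries, with a spread inside each group as large as the difference between them (log2 fold change −0.28, adjusted p = 0.131). Without control siRNA replicate 1, TYMS was higher (adjusted p = 0.0191, spanning 0.0191 to 0.569 across its alternatives) and TK1 was lower (adjusted p = 0.00449, spanning 0.00449 to 0.402 across its alternatives). TK1 also passed without RNF6 siRNA replicate 1 (adjusted p = 0.0401). DUT, which removes dUTP, had 31 to 33.3 CPM in RNF6 siRNA and 32.9 to 38.2 CPM in control siRNA libraries (adjusted p = 0.306), and it has processed pseudogenes that can share its reads. The 20 listed pseudogenes named after members each held at most 11 reads in a library.

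Chromatin copying split as well. CHAF1A, the large subunit of the CAF-1 complex that places histones behind the fork, had 64.0, 54.0 and 66.1 CPM in RNF6 siRNA libraries, against 40.0, 44.3 and 40.7 CPM in control siRNA libraries, and rose 1.47-fold (log2 fold change 0.56, SE 0.113, adjusted p = 0.00242). Its partner CHAF1B had 41.7, 40.7 and 38.3 CPM in RNF6 siRNA and 28.3, 34.2 and 32.6 CPM in control siRNA libraries, and rose 1.26-fold (log2 fold change 0.34, SE 0.114, adjusted p = 0.0367). SLBP, which binds the stem-loop of replication-dependent histone mRNAs, had 90.2, 89.6 and 91.5 CPM in RNF6 siRNA and 122.4, 124.5 and 116.2 CPM in control siRNA libraries, and fell 1.34-fold (log2 fold change −0.42, SE 0.0938, adjusted p = 0.00447). UHRF1, which brings the maintenance methyltransferase to new DNA, had a log2 fold change of −0.01 (95% interval −0.25 to 0.23).

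The CHAF1B call was fragile. It was lost on leaving out RNF6 siRNA replicate 1 (adjusted p = 0.101), 2 (0.0867) or 3 (0.0791), on leaving out control siRNA replicate 1 (0.0994) or 3 (0.116), with DESeq2 (0.057) and with no low-count filter (0.0806), spanning 0.00972 to 0.128 across its alternatives.

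Of the transcription factors, E2F2 fell and E2F1 did not pass. E2F2, an activator of S-phase genes, had 16.2, 13.3 and 17.5 CPM in RNF6 siRNA libraries, against 25.5, 24.2 and 22.8 CPM in control siRNA libraries, and fell 1.53-fold (log2 fold change −0.61, SE 0.133, adjusted p = 0.00389). E2F1 had 25.4, 17.7 and 19.9 CPM in RNF6 siRNA and 19.0, 19.5 and 20.4 CPM in control siRNA libraries, so that its groups overlapped (adjusted p = 0.601). The fall of E2F2 and the rises of members such as MCM3, CDT1 and CDC7 stood side by side in the same libraries.

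**Figure D3:**
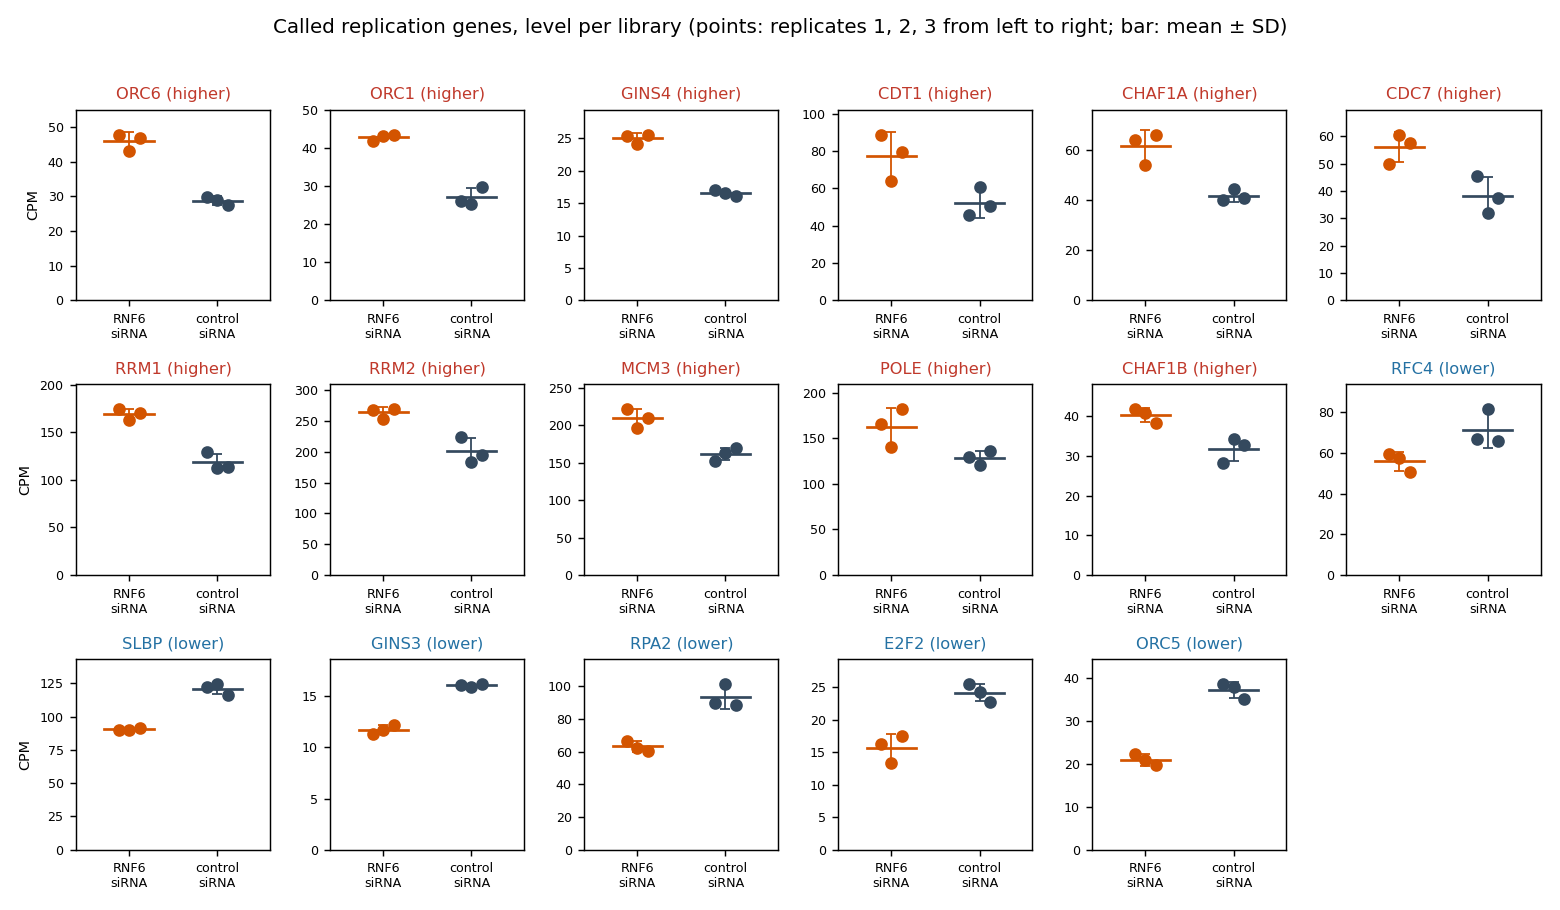
Level in CPM of the 17 called replication genes in each library, with the mean and SD of the 3 libraries of a group as a bar. Points run from replicate 1 to 3 from left to right, and each panel starts at 0. In all 17 panels the RNF6 siRNA and control siRNA points do not overlap. The panels were picked by the call, which favours this, and 44.2% of all genes tested had no overlap.

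Libraries of a group differed from each other in a way that followed the GC content of the transcripts. RNF6 siRNA replicate 2 was the lowest library of its group for 31 of the 53 members, and its deviation from the group mean had a rank correlation of −0.82 with GC content over the members. The value was 0.67 in RNF6 siRNA replicate 1 and 0.31 in replicate 3. In the control siRNA group it was −0.57 in replicate 1, 0.55 in replicate 2 and 0.19 in replicate 3. Over 12958 tested genes with a GC value, the same 6 correlations were 0.61, −0.59 and −0.03 in RNF6 siRNA replicates 1, 2 and 3, and −0.61, 0.55 and 0.23 in control siRNA replicates 1, 2 and 3. These are descriptions across genes that share a library. RNF6 siRNA replicate 2 and control siRNA replicate 1, the shallowest of their groups, leaned the same way, so the trend crossed the groups.

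**Figure D4:**
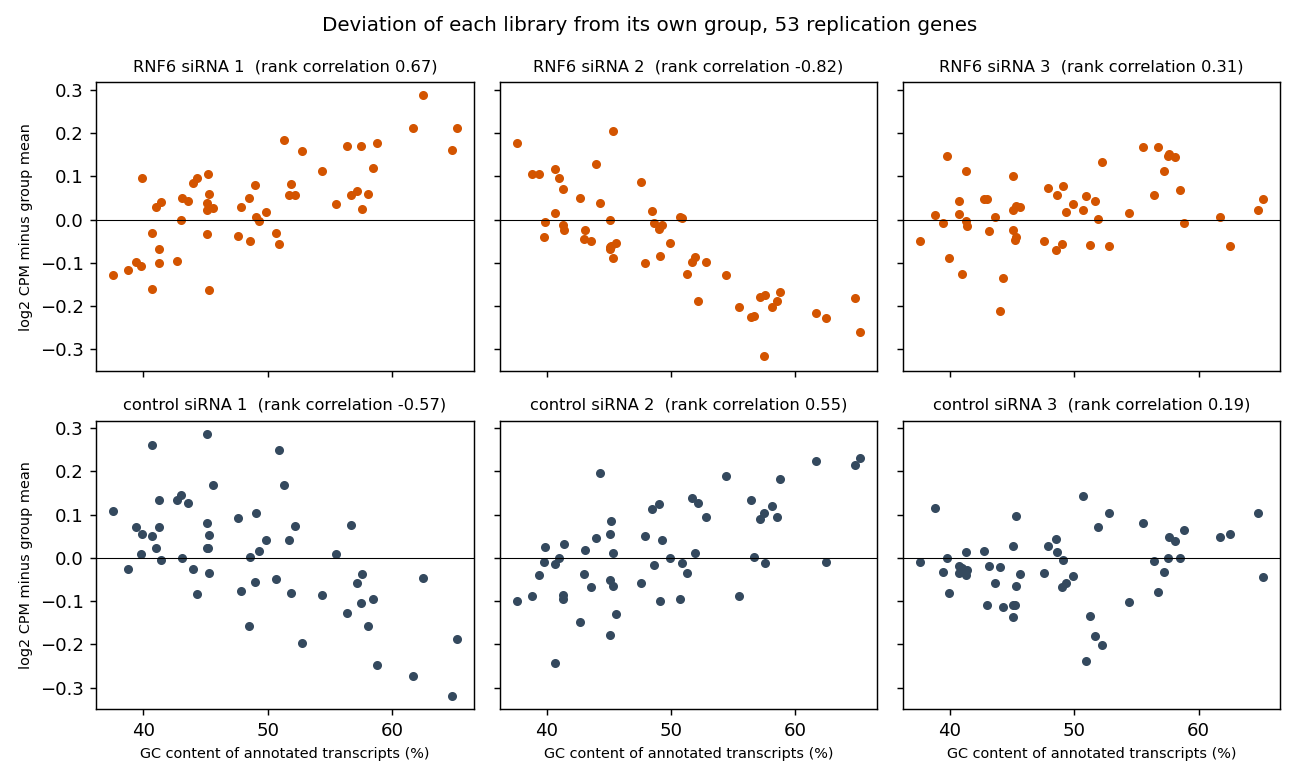
Deviation of each library from the mean of its own group (log2 CPM) against the GC content of the transcripts, 1 point for each of the 53 replication genes. The points slope down in RNF6 siRNA replicate 2 (rank correlation −0.82) and control siRNA replicate 1 (−0.57) and up in RNF6 siRNA replicate 1 (0.67) and control siRNA replicate 2 (0.55).

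Subtracting a GC trend fitted library by library over all tested genes with a GC value was an alternative added after the data were seen. A relation to GC content remained over the members, in part with the opposite sign. Their rank correlations were then −0.18, −0.17 and 0.36 in RNF6 siRNA replicates 1 to 3. In control siRNA replicates 1 to 3 they were 0.36, −0.33 and −0.07. The common biological coefficient of variation was 7.54%, beside 10.5% without the subtraction. The trend was fitted to these same libraries, which favours a lower value. The fit then called 28 members, or 52.8%, beside 43.7% of all genes tested, and the calls were 19 higher and 9 lower, with all 11 rises and all 6 falls given above among them. The 8 further rises were GMNN, MCM2, MCM4, GINS1, PCNA, RFC2, POLA1 and FEN1, with log2 fold changes from 0.20 to 0.32. The 3 further falls were ORC4 (log2 fold change −0.33), MCM6 (−0.24) and TK1 (−0.26). Leaving out RNF6 siRNA replicate 2 and control siRNA replicate 1 together was also added after the data were seen. It gave 15 higher and 7 lower members, or 41.5% of the members, beside 33.5% of all genes tested. Among these calls were 10 of the 11 rises and all 6 falls. CHAF1B was the rise that was lost (adjusted p = 0.119).

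**Figure D5:**
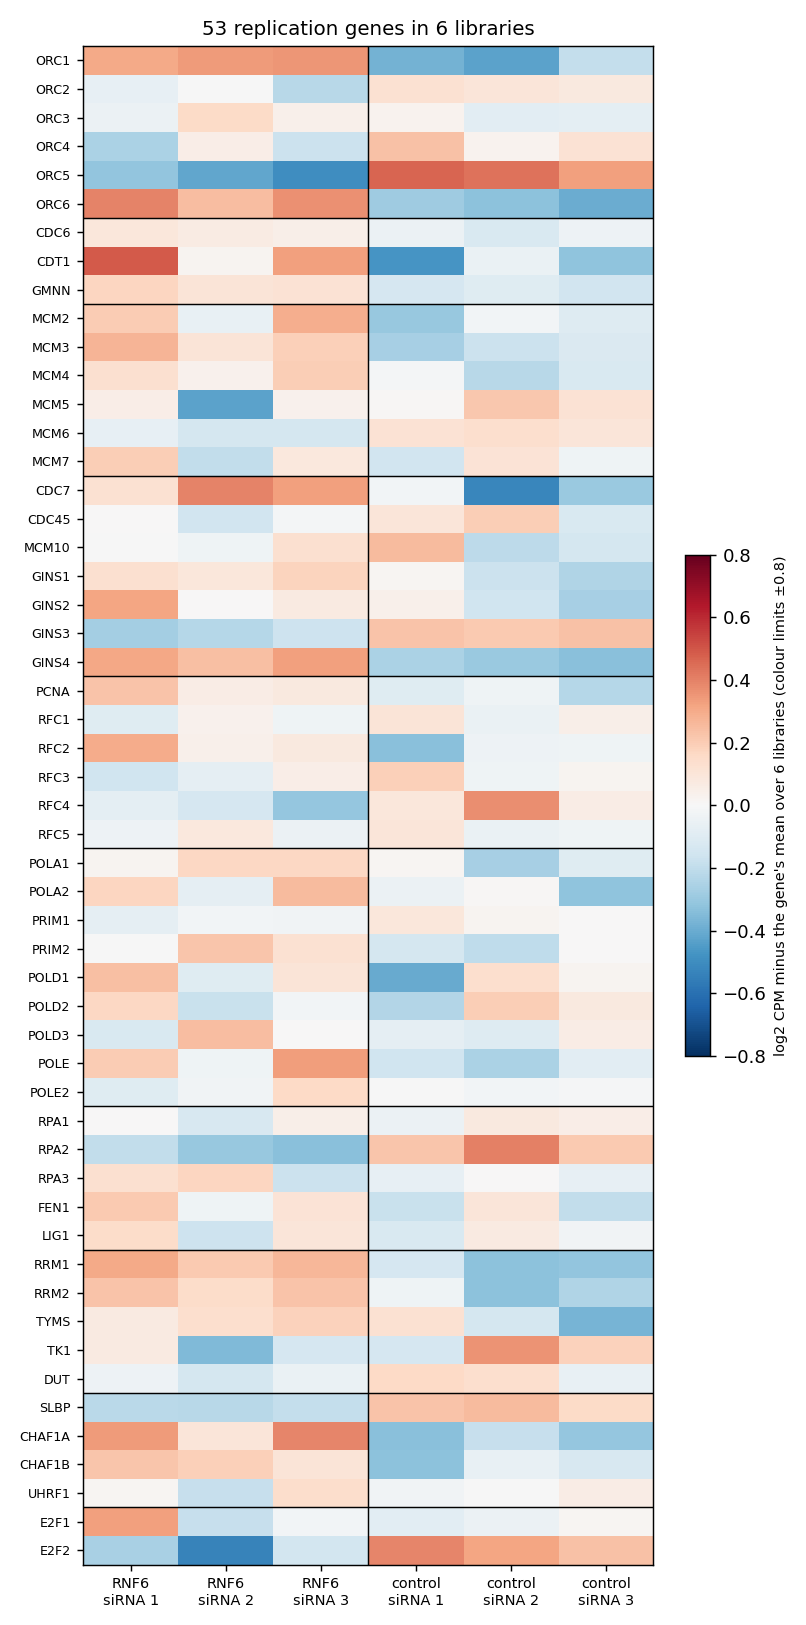
Level of the 53 replication genes in the 6 libraries, as log2 CPM minus the mean of each gene over all libraries, with black lines between steps and between groups. Reading across a row, ORC5 turns from blue in RNF6 siRNA to red in control siRNA libraries and ORC1, ORC6 and GINS4 from red to blue, while rows such as MCM7 and POLD2 differ as much within a group as between the groups.

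Summed levels by step had ratios of RNF6 siRNA to control siRNA between 0.837 and 1.21. The sum over the 53 members was 4857, 4410 and 4735 CPM in RNF6 siRNA libraries and 4312, 4492 and 4332 CPM in control siRNA libraries, so the groups overlapped. The licensing step had 290.3, 260.1 and 273.9 CPM in RNF6 siRNA and 221.4, 232.3 and 225.5 CPM in control siRNA libraries, a ratio of 1.21, and the activation step had a ratio of 1.17. The ratios of the MCM2-7 helicase and of nucleotide supply were both 1.09. The sum over E2F1 and E2F2 was lower, at 41.56, 30.99 and 37.39 CPM in RNF6 siRNA and 44.44, 43.65 and 43.2 CPM in control siRNA libraries. These sums carry no test.

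Among all genes tested 16.6% were called higher and 16.1% lower, and the counts in lists of other genes of the pathway are to be read against these shares. Of 17 other origin firing and fork genes, 5 rose and 1 fell. Both directions together were near the 32.7% of all genes called, but rises outnumbered falls, which was not tested. The one that fell was DBF4, the activating subunit of the CDC7 kinase, which had 32.7, 36.2 and 33.7 CPM in RNF6 siRNA libraries and 61.2, 53.8 and 53.9 CPM in control siRNA libraries (fall of 1.65-fold, adjusted p = 0.000331). CDC7 and DBF4 thus moved in opposite directions. DTL, which directs destruction of CDT1, rose 1.51-fold to 60.6 ± 4.81 CPM in RNF6 siRNA, against 40.1 ± 2.53 CPM in control siRNA libraries (SD, n = 3 each), the same direction as CDT1 mRNA. MTBP and TICRR, partners in origin firing, rose 1.66-fold and 1.37-fold. The TICRR call was lost on leaving out RNF6 siRNA replicate 3 (adjusted p = 0.0805) or control siRNA replicate 3 (0.0613), spanning 0.0014 to 0.0805 across its alternatives.

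Of 8 other polymerase and clamp-related genes, 2 rose and 1 fell. KIAA0101, the PCNA-associated factor also called PCLAF, had 61.6, 63.5 and 70.7 CPM in RNF6 siRNA and 33.7, 32.3 and 29.7 CPM in control siRNA libraries, a rise of 2.05-fold (adjusted p = 2.54e-05). ATAD5, which helps to unload PCNA, rose 1.89-fold and POLE3, a histone-fold subunit of the leading-strand polymerase, fell 1.36-fold. Of 9 genes of fragment processing and topoisomerases, 2 fell and 0 rose, against 16.1% lower and 16.6% higher of all genes tested. TOP2B, a topoisomerase that is present throughout the cycle, had 80.5, 87.5 and 75.3 CPM in RNF6 siRNA and 202.2, 152.1 and 174.6 CPM in control siRNA libraries, a fall of 2.17-fold (adjusted p = 2.37e-05). RNASEH2B fell 1.32-fold, but its call was lost on leaving out RNF6 siRNA replicate 1 (adjusted p = 0.129) or 2 (0.0626), on leaving out control siRNA replicate 3 (0.0648) and with DESeq2 (0.0517), spanning 0.00622 to 0.129 across its alternatives.

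Of 11 other nucleotide enzymes, 1 rose and 3 fell. CTPS1, which makes CTP, fell 1.42-fold, the mitochondrial thymidine kinase TK2 fell 1.5-fold and NME1, a nucleoside diphosphate kinase, fell 1.40-fold. The NME1 call was lost on leaving out RNF6 siRNA replicate 2 (adjusted p = 0.118) or 3 (0.121) or on leaving out control siRNA replicate 2 (0.0816) or 3 (0.0676), spanning 0.000581 to 0.121 across its alternatives. Among 6 other chromatin copying genes, the histone chaperone gene NASP rose 1.36-fold to 261 ± 2.42 CPM in RNF6 siRNA, against 192.3 ± 8.72 CPM in control siRNA libraries, and CABIN1 rose 1.32-fold. The CABIN1 call was lost on leaving out RNF6 siRNA replicate 3 (adjusted p = 0.0537) or control siRNA replicate 3 (0.064), spanning 0.000825 to 0.0667 across its alternatives.

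Genes that control the passage from G1 to S had 5 rises and 2 falls among 17, against 16.6% higher and 16.1% lower of all genes tested. CCNE1, the cyclin that activates CDK2 at this point, had 17.3, 15.8 and 15.9 CPM in RNF6 siRNA and 38.7, 43.8 and 38.7 CPM in control siRNA libraries, a fall of 2.47-fold (adjusted p = 7.19e-06). E2F6, a repressor of the family, fell 2.09-fold. E2F7, another repressor, rose 1.85-fold and RBL2, the pocket protein p130, rose 1.63-fold, with 18.2% of its exon length shared with other genes. The median log2 fold change of this list was 0.05, close to the 0.01 of all genes tested.

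Genes of mitosis, the part of the cell cycle that follows, rose more often than they fell. Of 39 tested, 22 rose and 0 fell, against 16.6% higher and 16.1% lower of all genes tested. Their median log2 fold change was 0.36, beside 0.01 for all genes tested. The replication genes had 11 of 53 higher, 6 lower and a median of 0.09. CENPF (2.63-fold), NUSAP1 (1.83-fold), UBE2C (1.75-fold) and CCNB2 (1.76-fold) had the smallest adjusted p of that list, and annotated exons of other genes cover 62.2% of NUSAP1. A difference between the lists, or between a list and all genes, was not tested. All lists were chosen with earlier results of these data known.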

How the data were processed

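RNA was measured in 6 libraries, 3 per group, with groups and replicate numbers taken from the sample titles. The authors deposited whole-number read counts per gene symbol, with no normalisation. TopHat2 2.0.11, HTSeq and the hg19 build are named in the submitters' processing notes. The strand setting is not given in the sources used here, so reads of overlapping or antisense genes cannot be told apart. Rows without a gene held 27.3% to 29.4% of listed reads and were left out.

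Counts were tested with edgeR 4.0.16 in R 4.3.3 (filterByExpr defaults with a minimum count of 10, TMM scaling, glmQLFit with robust dispersion, the group as only term), with Benjamini-Hochberg adjustment over 14685 genes. An adjusted p with no tool beside it is from this test. Log2 fold changes run RNF6 siRNA over control siRNA, and each SE was derived as |log2 fold change| over the root of F. Alternatives were upper-quartile scaling, library totals only, DESeq2 1.42.0, limma-voom (limma 3.58.1), no filter and a stricter filter of 1 CPM in 3 libraries, a replicate block and leaving out each library. A removal of the trend on GC content used lowess (span 0.3), fitted over all tested genes with a GC value. It and leaving out the shallowest library of each group were added after the data were seen.

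On simulated data drawn from the means, depths and spread of the 14685 genes, and 200 genes changed in each of 3 sets, the test recovered 15.9% of 1.3-fold, 47.8% of 1.5-fold and 82.8% of 2-fold changes, and 6.71% of its calls were false. Most 1.3-fold changes were therefore missed in these simulated sets. The share of changed genes there was far below the 32.7% called in the data, so recovery in the data may differ. Mean chi-square values between libraries of a group ran from 3.67 to 14.1 per gene (1 means counting error only), above counting error in every pair.

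The members and all lists were chosen with earlier results of these data known. All members were accounted for and every called member is named. Of each pathway list, up to 4 called genes are named, taken by smallest adjusted p (1 such gene is not reported here), and of each marker list the most abundant gene is named; the other epithelial markers were picked after their values were seen. Exon length, GC content and overlap come from GENCODE 29 (GRCh38, whereas the counts used hg19), which matched 53 members and 88.2% of tested genes. Promoter sequences are from RefSeq (GRCh38.p14), with 6 members not in the table.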

Additional observations from a re-analysis of the deposited data

How the results depend on the processing

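Over 15 alternatives, the count of higher members was 7 to 19 and that of lower members 4 to 9, around 11 and 6. The share of members called ran from 20.8% to 52.8%, and that of all genes tested from 15.6% (no filter) to 43.7%. Leaving out 1 library in turn gave 8 to 14 higher and 4 to 7 lower members. Leaving out 1 library gave 1514 to 2910 higher and 1478 to 2967 lower genes over the whole table, with 1529 higher and 1478 lower without RNF6 siRNA replicate 3 and 1514 higher without control siRNA replicate 3. With the GC trend removed, 19 members were higher and, in the pathway lists without mitosis, 14 genes were lower in place of 9. The median log2 fold change of all genes stayed between −0.001 and 0.024 under every setting.

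The labels give replicate numbers and do not say whether same-numbered libraries were paired. Same-numbered libraries had correlations of −0.46, −0.25 and 0.05 in their deviations from the group means. These deviations also followed GC content in most libraries, so the correlations cannot decide whether the samples were paired. With the replicate block, 7 members were higher and 4 lower, and 1421 genes were higher and 1321 lower over the whole table. The 6 member calls that ended under the block, with edgeR's adjusted p there, were CDT1 (0.0558), MCM3 (0.0668), GINS3 (0.0707), POLE (0.093), RFC4 (0.108) and CHAF1B (0.128). Across all alternatives the adjusted p ran from 4.71e-05 to 0.0558 for CDT1 and from 0.000411 to 0.0668 for MCM3.

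Of members that did not pass, 9 changed the sign of a log2 fold change near 0 under an alternative, and 0 of these values passed the test. The cause was not tested. Leaving out 1 library in turn gave −0.03 to 0.16 for MCM7, −0.04 to 0.20 for MCM10, −0.05 to 0.03 for RFC5, −0.15 to 0.06 for POLD2, −0.02 to 0.16 for POLD3, −0.06 to 0.09 for POLE2, −2.7e-03 to 0.14 for LIG1, −0.09 to 0.07 for UHRF1 and −0.06 to 0.20 for E2F1. Upper-quartile scaling gave 0.01 for RFC5 and 0.01 for UHRF1. Removing the GC trend gave 9.3e-04 for RFC5, −2.8e-03 for POLE2 and 0.01 for UHRF1. Leaving out the shallowest library of each group gave −0.05 for POLD3 and 0.04 for UHRF1. The median level per length of the members in control siRNA libraries was 11.7 CPM per kilobase of exon union and 17.8 per kilobase of the longest transcript.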
